A study of Zea mays with 6 samples.

Results

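YABBY, KNOX and zinc finger homeodomain genes encode 3 families of plant transcription factors. In the deposited count table of maize (Zea mays) kernels, the protein-coding genes of these families were taken by their names: the protein description or the transcription factor family had to hold YABBY, KNOX, "homeobox protein knotted", zinc finger homeodomain or ZF-HD. The homeobox gene kn1 and 3 further identifiers were set aside. This gave 73 of 49785 genes, of which 15 were YABBY, 28 KNOX and 30 zinc finger homeodomain (ZF-HD) genes. The rule uses names only, although the families were picked with earlier results of these data known.

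RNA came from kernels of the maize mutant shrek1 (genotype given as Shrek1-/-) and from wild-type (WT) kernels, with 3 libraries of each. All kernels were taken 13 days after pollination from field-grown plants, and their pericarp, the maternal outer layer, was peeled off before extraction, so a library holds the embryo and the endosperm in bulk. The sources used here do not say whether the replicates were separate plants or ears, or whether the WT kernels were siblings of the mutant ones, so p-values measure only the spread between these samples. The gene mutated in shrek1 was not matched to an identifier, and the genotype labels were therefore not checked with it.

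YABBY proteins carry a zinc finger and a YABBY domain and act in lateral organs such as leaves and the embryonic leaf, where they set polarity and promote outgrowth of the blade. KNOX proteins are homeodomain proteins of the TALE group: class I members keep cells of the shoot meristem undetermined and mark the shoot meristem of the cereal embryo, while class II members are expressed widely in differentiating tissue. ZF-HD proteins join a zinc finger dimerisation region to a homeodomain, and the mini zinc finger proteins carry the zinc finger without the homeodomain, pairing with ZF-HD proteins and blocking them in Arabidopsis.

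The libraries held 17145006 to 20288565 counts. In a principal component analysis of all tested genes the first component, with 87.4% of the variance, separated the genotypes, and the second, with 4.09%, set shrek1 replicate 3 (-47.0) apart from the other shrek1 libraries (15.4 and 29.2). Values below are CPM, the counts scaled to a common library size with TMM factors, and a count of 0 allows up to 3 counts in a library, which is 0.171 to 0.185 CPM in shrek1 and 0.142 to 0.166 CPM in WT. These floors and the counting intervals below cover counting error only, since the reads carry no molecular identifiers. Genes were tested with edgeR's quasi-likelihood test and Benjamini-Hochberg adjustment over 22681 genes at a threshold of 0.05, and log2 fold changes are shrek1 over WT with an approximate standard error (SE). "Fell" and "rose" are used only of genes that passed.

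Of the 73 members, 24 had no count in any library and 33 were tested. Of these 33, 30 fell in shrek1 kernels, none rose and 3 did not pass. Across all tested genes, 32.4% fell and 32% rose, so that 64.4% passed in either direction. With library size as the only scaling, the whole-table split moved to 4994 genes higher and 9682 lower, against 7264 higher and 7345 lower with TMM. For 31 of the 33 members, every shrek1 library was below every WT library, while 35.3% of all tested genes showed this and 70% were without overlap in either direction. A fall of at least 4-fold was called for 23 members, beside 10.1% of all tested genes, and of at least 16-fold for 15 members, beside 3.84%. Of the 33 tested members, 16 had fewer than 10 counts in every shrek1 library. Such genes passed the filter on low counts through WT alone and had to differ, so these counts describe the members and carry no test. The filter asked for about 10 counts, scaled to library size, in at least 3 libraries. Further members, named below, reached that cutoff in only some shrek1 libraries and also passed only through WT. The median log2 fold change was -3.77 over the tested members and -0.01 over all tested genes.

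**Figure D1:**
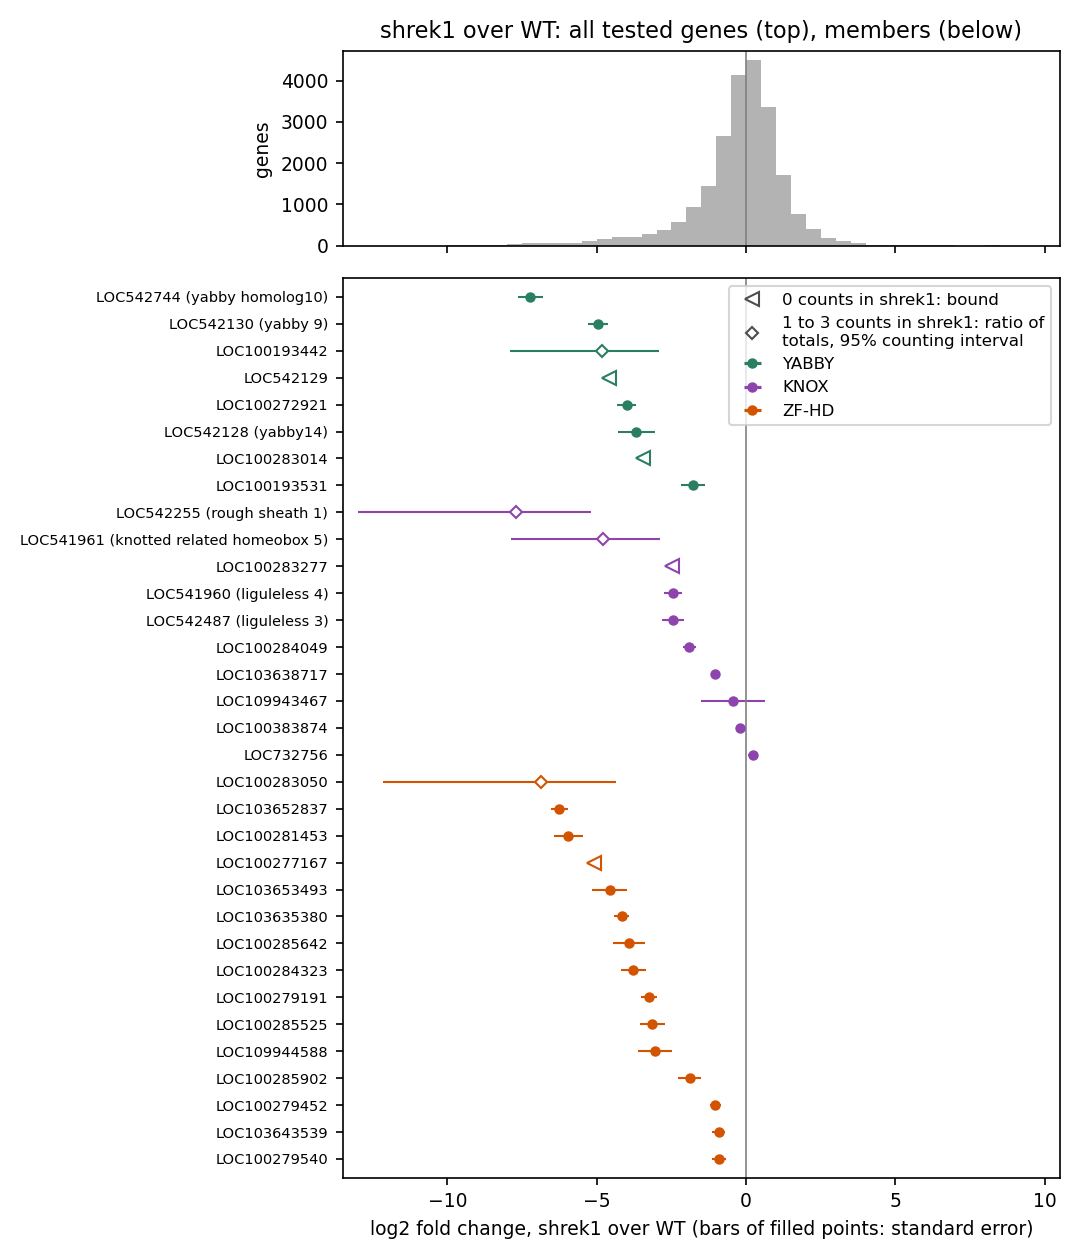
Log2 fold change of shrek1 over WT kernels, with the number of genes per bin for all tested genes (top; values beyond 10 in size are put in the end bins) and each tested member (below). Filled points are edgeR estimates with their SE, diamonds are ratios of totals with a 95% counting interval, and triangles are bounds for genes without a count in shrek1. All members but LOC732756 lie below 0, and LOC100383874 and LOC109943467 among these did not pass the test.

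Embryo marker genes were lower in shrek1 as well. All 7 embryo markers (kn1, lec1, vp1, glb1, glb2, ole1 and ole3) fell, beside 32.4% of all tested genes. Of these, kn1, lec1 and glb2 had fewer than 10 counts in every shrek1 library. They passed the low-count filter through WT alone and had to differ, so their calls carry no test. The summed level of the 7 embryo markers was 102.7 to 116.9 CPM in shrek1 libraries and 6199 to 7849 CPM in WT libraries. The embryo globulin gene glb2 was at 0 in every shrek1 library. Of 8 starchy endosperm markers, 3 fell and 4 rose, with sums of 48730 to 65210 CPM in shrek1 and 85490 to 112500 CPM in WT. Of 4 aleurone markers, 2 fell and 2 rose, with sums of 579 to 787 CPM in shrek1 and 348 to 399 CPM in WT. Of 7 markers of the basal endosperm transfer layer, 5 were tested and 1 rose, betl1 was at 0 throughout, and the sums were 7.26 to 77.6 CPM in shrek1, lowest in replicate 3, and 11.7 to 16.7 CPM in WT. Of 3 markers of the embryo-surrounding region, 1 was tested and did not pass, with sums of 0.400 to 2.78 CPM in shrek1 and 0.1002 to 1.61 CPM in WT, esr3 being at 0 in shrek1 and esr1 at 0 in WT. The 4 markers of maternal floral and pericarp tissue were too low to be tested, with sums of 0.229 to 0.463 CPM in shrek1 and 0.501 to 1.38 CPM in WT and p1 at 0 in shrek1. In bulk kernels, fewer embryo cells and less RNA per cell cannot be told apart, and the part of the embryo markers in the results below was not tested.

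**Figure D2:**
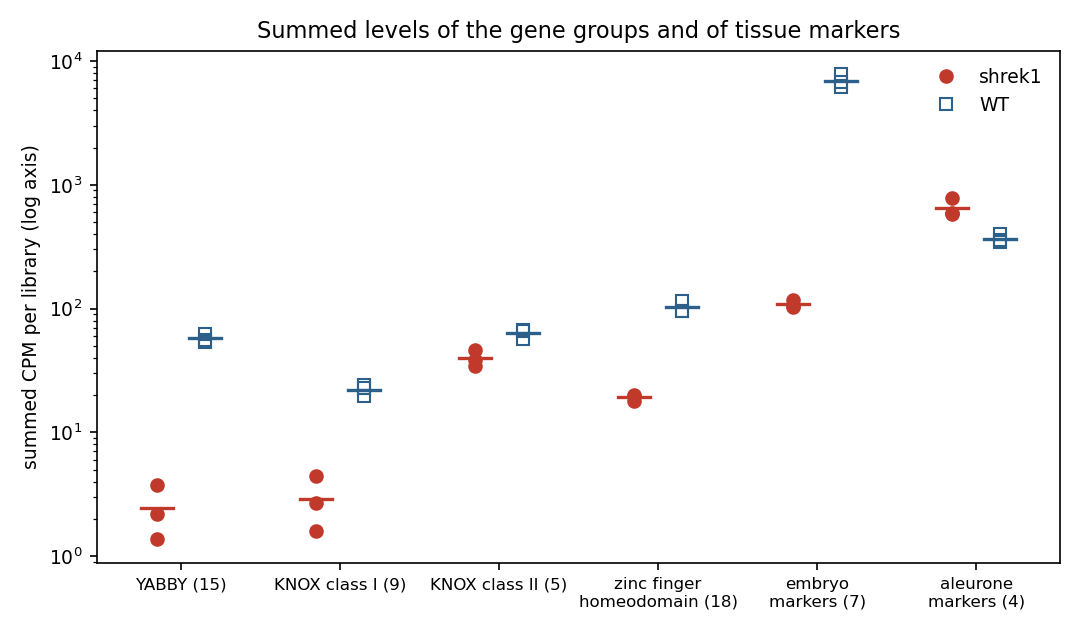
Summed CPM per library (log axis; points are libraries, bars are means, n = 3 per genotype) of YABBY genes, both KNOX classes, the zinc finger homeodomain genes without mini zinc fingers, and embryo and aleurone markers, with the number of genes in brackets. The shrek1 libraries lie below the WT libraries for each gene group and for the embryo markers, with the narrowest gap for KNOX class II. They lie above them for the aleurone markers, of which nkd1 and nkd2 rose while cr4 and dek1 fell. Other marker sets are not drawn. Of these, the starchy endosperm and maternal sums were also lower in every shrek1 library than in WT. The transfer layer and embryo-surrounding region sums overlapped.

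All 8 tested YABBY genes fell in shrek1 kernels, beside 32.4% of all tested genes. None of the family reached 1 FPKM (fragments per kilobase of gene and sequencing depth) in shrek1. The family summed to 2.20, 1.36 and 3.71 CPM in shrek1 replicates 1 to 3, against 55.7, 62.7 and 53.5 CPM in WT replicates 1 to 3, a sum 23.6-fold lower in shrek1. The highest shrek1 library was replicate 3, and it was still far below every WT library. The median log2 fold change of the 8 was -4.78, or -4.29 with genes at 0 in shrek1 placed at their bound, and -6.39 without shrek1 replicate 3. Of the 8, 5 had fewer than 10 counts in every shrek1 library and passed the low-count filter through WT alone: LOC542744, LOC542129, LOC100283014, LOC542128 and LOC100193442. These had to differ, so their calls carry no test. LOC542130 (6, 3 and 15 counts in shrek1) and LOC100193531 (11, 5 and 8) also passed the filter only through WT. Their calls are to be read with the same limit. Of the 7 members that were not tested, 5 had no count in any library.

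Per length, the most abundant YABBY transcripts of WT kernels were yabby 9 (LOC542130, chromosome 5, 24519883 to 24524064, plus strand) and yabby homolog10 (LOC542744, chromosome 1, 230589293 to 230594150, plus strand). Both match rice YABBY 3. Yabby 9 had 0.284 ± 0.213 FPKM in shrek1 and 9.30 ± 0.558 FPKM in WT, and yabby homolog10 had 0.0485 ± 0.0559 FPKM in shrek1 and 8.25 ± 1.74 FPKM in WT (SD, n = 3 each). In maize leaf primordia, yabby 9 is known to be expressed on the adaxial (upper) side. It had 0.347, 0.185 and 0.857 CPM in shrek1, against 15.7, 15.1 and 13.8 CPM in WT. Every shrek1 library was thus below 1 CPM and every WT library above 13 CPM, a log2 fold change of -4.96 ± 0.33 (SE, edgeR adjusted p = 6.54e-07), or -5.74 without shrek1 replicate 3. Yabby homolog10 had 0.174, 0 and 0.0571 CPM in shrek1, against 11.02, 15.5 and 11.7 CPM in WT. With 4 counts in all shrek1 libraries together, its log2 fold change of -7.23 ± 0.42 (edgeR adjusted p = 3.01e-07) was the lowest in the family among genes with more than 3 counts in shrek1, and it was -8.45 without shrek1 replicate 1.

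A pair of genes matches rice YABBY 6. LOC100272921 (chromosome 1, 179711603 to 179717828, plus strand) had 0.868, 0.618 and 2.06 CPM in shrek1, against 18.8, 20.6 and 18.3 CPM in WT, and took the largest share of the family's counts in both genotypes. That share was 46.8% ± 8.04 in shrek1 and 33.6% ± 0.717 in WT (SD, n = 3 each), and its log2 fold change was -4.005 ± 0.31 (edgeR adjusted p = 3.19e-06), or -4.67 without shrek1 replicate 3. LOC100193531 (chromosome 3, 110898644 to 110904921, minus strand) kept the most of its level: it had 0.637, 0.309 and 0.457 CPM in shrek1, against 1.66, 1.35 and 1.84 CPM in WT. The genotypes did not overlap, and its log2 fold change of -1.77 ± 0.41 (edgeR adjusted p = 0.00309) was the smallest fall of a tested YABBY gene.

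The genes matching YABBY 4 and YABBY 1 had no count in any shrek1 library. LOC542129 (YABBY 4, chromosome 5, 193315179 to 193318975, minus strand) stood at 3.60, 5.76 and 3.30 CPM in WT and was at least 23.9-fold lower in shrek1, taken against 3 counts per library (edgeR adjusted p = 1.41e-05). LOC100283014 (YABBY 1, chromosome 7, 6590041 to 6603356, plus strand) stood at 2.27, 1.603 and 1.98 CPM in WT and was at least 11.03-fold lower in shrek1 (edgeR adjusted p = 4.93e-05). For both genes the WT libraries lay above the shrek1 floor throughout.

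Rice YABBY 5, also called TONGARI-BOUSHI1, acts in lateral organ development and in upkeep of the spikelet meristem, and 2 maize genes match it. Yabby14 (LOC542128, chromosome 10, 135702003 to 135704637, minus strand), known from the adaxial side of maize leaf primordia like yabby 9, had 0.174, 0 and 0.114 CPM in shrek1, against 1.38, 1.40 and 1.23 CPM in WT, a log2 fold change of -3.68 ± 0.62 (edgeR adjusted p = 0.000441), or -4.34 without shrek1 replicate 1. LOC100193442 (chromosome 2, 24208409 to 24210405, plus strand) had 0, 0 and 0.114 CPM in shrek1, against 0.941, 1.15 and 1.23 CPM in WT. It held 2 counts over all shrek1 libraries, and the ratio of WT over shrek1 was 28.4 with a 95% counting interval of 7.55 to 239 (edgeR adjusted p = 0.000399). The matches of DROOPING LEAF, which in rice specifies carpels and the leaf midrib, were too low to be tested: LOC100282346 had 5 counts over the shrek1 libraries and 10 over the WT libraries, and LOC100502185 had 0 and 2.

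**Figure D3:**
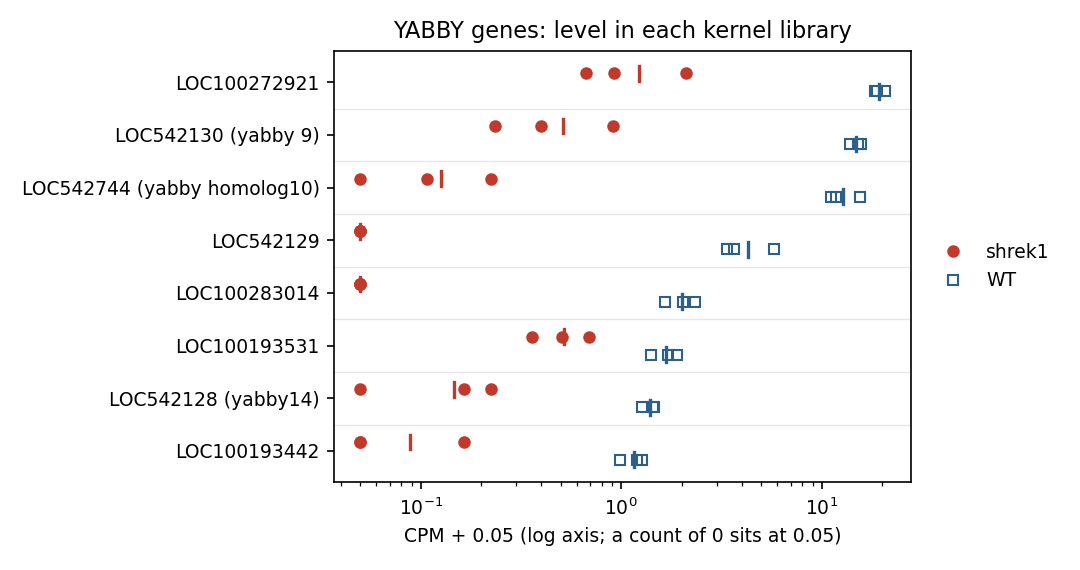
CPM of the 8 tested YABBY genes in each library, on a log axis after adding 0.05, so that a count of 0 sits at 0.05 (points are libraries, ticks are means, n = 3 per genotype). No shrek1 library overlaps a WT library for any of the 8 genes, and LOC542129 and LOC100283014 sit at 0 in all 3 shrek1 libraries.

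KNOX genes are given by class. Class II was assigned by the rice protein named in the description, and class I to the other members with a homeobox domain. All 5 tested class I genes fell at least 4-fold, beside 10.1% of all tested genes. Of the 4 tested class II genes 2 fell, by less than 4-fold, and 2 did not pass. Among all tested genes 32.4% fell, and with 4 genes the class II count cannot be told from that share. Class I genes summed to 2.66, 1.61 and 4.46 CPM in shrek1, against 22.8, 23.9 and 19.5 CPM in WT. Class II genes summed to 38.1, 34.4 and 46.0 CPM in shrek1, against 66.6, 65.6 and 56.4 CPM in WT. The sums of both classes separated the genotypes, being 7.59-fold lower in shrek1 for class I and 1.59-fold lower for class II, and class II made up 91.7% ± 1.40 of the family's counts in shrek1 and 73.2% ± 0.907 in WT (SD, n = 3 each). Of the 5 class I genes, 3 passed the low-count filter through WT alone: LOC542255, LOC100283277 and LOC541961. These had to differ, so their calls carry no test. The difference between the classes was not tested.

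Among class I genes, liguleless 3 and liguleless 4 were highest per length in WT. Dominant mutations of either gene are known to disturb the boundary of blade and sheath in the maize leaf. Liguleless 3 (LOC542487, chromosome 3, 54367180 to 54377004, plus strand) had 1.85, 0.618 and 2.63 CPM in shrek1, against 10.52, 9.17 and 8.25 CPM in WT. Its shrek1 libraries were uneven, lowest in replicate 2, and all stayed below WT, with a log2 fold change of -2.44 ± 0.37 (edgeR adjusted p = 0.000296). Liguleless 4 (LOC541960, chromosome 8, 134449570 to 134455190, plus strand) had 0.753, 0.865 and 1.71 CPM in shrek1, against 5.87, 6.91 and 5.61 CPM in WT, a log2 fold change of -2.45 ± 0.31 (edgeR adjusted p = 5.85e-05). For both genes shrek1 replicate 3 was the highest shrek1 library.

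Rough sheath 1 (LOC542255, chromosome 7, 3781686 to 3787739, plus strand), another gene whose dominant mutations disturb the maize leaf sheath, was nearly without reads in shrek1. It had 0.0579, 0 and 0 CPM in shrek1, which is 1 count in all, against 3.93, 5.01 and 3.25 CPM in WT, and the ratio of WT over shrek1 was 206.5 with a 95% counting interval of 36.7 to 8189 (edgeR adjusted p = 3.24e-06). LOC100283277 (chromosome 2, 241654288 to 241660560, minus strand), a second match of rough sheath 1, had no count in shrek1, against 1.11, 1.05 and 0.802 CPM in WT, and was at least 5.58-fold lower in shrek1 (edgeR adjusted p = 0.000257). Knotted related homeobox 5 (LOC541961, chromosome 6, 31929163 to 31940605, plus strand) had 0, 0 and 0.114 CPM in shrek1, against 0.886, 1.00 and 1.37 CPM in WT, a ratio of WT over shrek1 of 28.0 with a 95% counting interval of 7.44 to 236 (edgeR adjusted p = 0.000484). None of these 3 genes overlapped between genotypes. For kn1, the founding class I gene, which was set aside from the members and is itself an embryo marker, the levels were 0.347, 0.247 and 0.514 CPM in shrek1 and 4.37, 5.71 and 3.77 CPM in WT. The other 4 class I genes had at most 12 counts each over all libraries, among them LOC101027251, which had no count in shrek1 and 0.0554, 0.351 and 0.0943 CPM in WT and overlaps another gene.

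The highest KNOX level per length was that of a class II gene. LOC103638717 (match of knotted-1-like 11, chromosome 9, 98188770 to 98197149, plus strand) averaged 10.1 ± 1.89 FPKM in shrek1 and 21.0 ± 2.48 FPKM in WT (SD, n = 3 each), the highest mean FPKM of all tested members in either genotype. It had 15.7, 14.2 and 20.4 CPM in shrek1, against 39.1, 33.5 and 30.0 CPM in WT, without overlap and with a log2 fold change of -1.03 ± 0.15 (edgeR adjusted p = 0.000193). LOC100284049 (homeobox protein HD1, chromosome 1, 5076499 to 5081048, plus strand) had 2.14, 1.79 and 2.29 CPM in shrek1, against 7.42, 9.12 and 6.74 CPM in WT, a log2 fold change of -1.90 ± 0.21 (edgeR adjusted p = 2.63e-05).

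The 2 matches of knotted-1-like 2 did not pass the test. LOC100383874 (chromosome 5, 96645857 to 96649296, plus strand) had 10.8, 9.95 and 11.7 CPM in shrek1, against 12.7, 13.2 and 11.8 CPM in WT. Its libraries did not overlap, but the highest shrek1 and the lowest WT library lay next to each other, and its log2 fold change was -0.22 ± 0.13 (edgeR adjusted p = 0.177). It passed as lower with library size as the only scaling, with a log2 fold change of -0.50 (edgeR adjusted p = 0.00791), and with an offset for gene length, at -0.38 (edgeR adjusted p = 0.0267). LOC732756 (chromosome 4, 243750211 to 243753461, plus strand) had 9.44, 8.47 and 11.4 CPM in shrek1, against 7.36, 9.67 and 7.78 CPM in WT, overlapping, with a log2 fold change of 0.24 ± 0.18 (edgeR adjusted p = 0.254) that turned to -0.05 with library size as the only scaling.

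Of 13 KNOX-domain genes without a homeobox, 11 had no count, LOC118477069 had 1 count in WT, and LOC109943467 was tested and is named after its values were seen. It had 1.10, 0.804 and 0.229 CPM in shrek1, against 2.60, 0.150 and 0.189 CPM in WT. A lone WT library, replicate 1, was above all others while the remaining WT libraries were lowest, so the genotypes overlapped, and its log2 fold change was -0.43 ± 1.07 (edgeR adjusted p = 0.747), or 1.95 without WT replicate 1. The untested class II gene, LOC100284833, had 5 counts over the shrek1 libraries and 3 over the WT libraries. The remaining KNOX member is a phosphatidylinositol phosphate kinase match with 1 count in all.

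**Figure D4:**
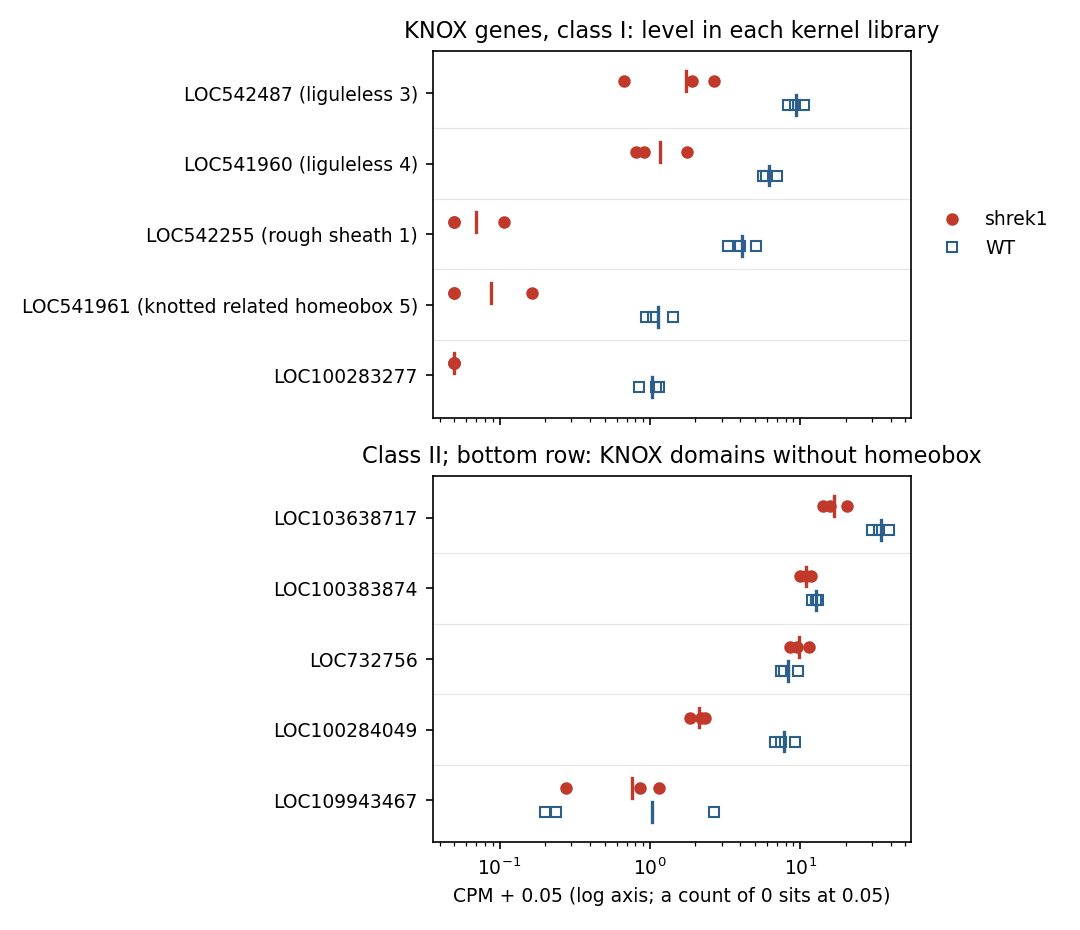
CPM of the tested KNOX genes in each library, class I above, class II and the tested gene without a homeobox below, on a log axis after adding 0.05 (points are libraries, ticks are means, n = 3 per genotype). Class I genes stand apart between genotypes by wide gaps, while LOC100383874 and LOC732756 lie close together or overlap.

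All 15 tested ZF-HD genes fell in shrek1 kernels without overlap between genotypes. Among all tested genes 32.4% fell, and 35.3% had every shrek1 library below every WT library. The falls of the 15 ranged from under 2-fold to no count left in shrek1. The family summed to 20.7, 20.3 and 18.2 CPM in shrek1, against 97.2, 115.7 and 96.6 CPM in WT, a sum 5.23-fold lower in shrek1. The shrek1 libraries were close to each other, and replicate 3 did not stand out. The median log2 fold change was -3.77, with 11 genes lower by at least 4-fold, beside 10.1% of all tested genes. Of the 15, 8 had fewer than 10 counts in every shrek1 library, or at most 4 in each, and passed the low-count filter through WT alone: LOC103652837, LOC100281453, LOC100277167, LOC100284323, LOC100283050, LOC103653493, LOC100285642 and LOC109944588. These had to differ, so their calls carry no test. Some shrek1 libraries of LOC100285525 (17, 4 and 10 counts), LOC100279191 (14, 21 and 10) and LOC100285902 (10, 12 and 21) missed the filter's cutoff, which is scaled to library size. These genes also passed only through WT, and their calls are to be read with the same limit.

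Per length, ZF-HD protein 6 led the family in WT. LOC103635380 (ZF-HD protein 6, chromosome 8, 75535295 to 75536804, plus strand) had 0.695, 0.927 and 1.26 CPM in shrek1, against 14.1, 16.5 and 21.6 CPM in WT, a log2 fold change of -4.17 ± 0.26 (edgeR adjusted p = 3.97e-07). LOC103652837 (ZF-HD protein 4, chromosome 4, 12317550 to 12341272, minus strand) had 0.174, 0.247 and 0.171 CPM in shrek1, against 12.5, 18.3 and 15.7 CPM in WT, a log2 fold change of -6.26 ± 0.29 (edgeR adjusted p = 9.41e-08). Together they made up 5.94% ± 1.84 of the family's counts in shrek1 and 32.0% ± 5.85 in WT (SD, n = 3 each). A second match of ZF-HD protein 6, LOC100285902 (chromosome 6), fell less: it had 0.579, 0.742 and 1.20 CPM in shrek1, against 2.33, 4.21 and 2.88 CPM in WT, a log2 fold change of -1.89 ± 0.38 (edgeR adjusted p = 0.00133).

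Matches of ZF-HD protein 9 kept most of the remaining reads. LOC100279540 (chromosome 1, 217367849 to 217369565, plus strand) had 7.01, 6.24 and 5.14 CPM in shrek1, against 14.5, 12.1 and 7.83 CPM in WT, a log2 fold change of -0.90 ± 0.23 (edgeR adjusted p = 0.0062). LOC100279452 (chromosome 7, 117519067 to 117520761, minus strand) had 6.14, 6.43 and 4.23 CPM in shrek1, against 12.5, 11.9 and 9.95 CPM in WT, a log2 fold change of -1.03 ± 0.19 (edgeR adjusted p = 0.000835). Together they made up 59.1% ± 6.54 of the family's counts in shrek1 and 22.3% ± 4.85 in WT (SD, n = 3 each). The third match, LOC100284323 (chromosome 2), did not keep its level: it had 0.232, 0.124 and 0.229 CPM in shrek1, against 2.71, 2.35 and 3.21 CPM in WT, a log2 fold change of -3.77 ± 0.42 (edgeR adjusted p = 2.29e-05).

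The 3 matches of ZF-HD protein 7 spanned a wide range as well. LOC100281453 (chromosome 4, 165285687 to 165287605, minus strand) had 0.174, 0.0618 and 0.0571 CPM in shrek1, against 4.82, 9.22 and 5.47 CPM in WT, a log2 fold change of -5.96 ± 0.48 (edgeR adjusted p = 2.3e-06), or -6.61 without shrek1 replicate 1. LOC100279191 (chromosome 5, 209308152 to 209309899, minus strand) had 0.811, 1.298 and 0.571 CPM in shrek1, against 8.14, 9.02 and 8.54 CPM in WT, a log2 fold change of -3.26 ± 0.27 (edgeR adjusted p = 3.02e-06). LOC103643539 (chromosome 1), whose table entry names no ZF-HD domain, fell least of the 3, with 2.72, 2.66 and 4.06 CPM in shrek1, against 6.48, 6.26 and 5.19 CPM in WT, a log2 fold change of -0.92 ± 0.23 (edgeR adjusted p = 0.00496).

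Overexpression of ZF-HD protein 1 is known to roll the leaf blade in rice, and 2 maize genes match it. LOC100285525 (chromosome 7) had 0.984, 0.247 and 0.571 CPM in shrek1, against 4.43, 7.61 and 4.10 CPM in WT, and LOC109944588 (chromosome 2) had 0.232, 0.247 and 0.0571 CPM in shrek1, against 1.16, 2.15 and 1.23 CPM in WT. Their log2 fold changes were close, at -3.14 ± 0.43 (edgeR adjusted p = 0.000115) and -3.05 ± 0.56 (edgeR adjusted p = 0.000739). LOC100277167 (ZF-HD protein 3, chromosome 3, 138523208 to 138525627, plus strand) had no count in shrek1, against 6.15, 6.01 and 5.99 CPM in WT. Its WT libraries were the most even of the family, and it was at least 34.2-fold lower in shrek1 (edgeR adjusted p = 1.54e-06).

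The other ZF-HD genes were low in both genotypes. LOC100283050 (ZF-HD protein 2, chromosome 1) had 0, 0 and 0.0571 CPM in shrek1, which is 1 count, against 1.94, 3.36 and 1.56 CPM in WT, a ratio of WT over shrek1 of 116 with a 95% counting interval of 20.5 to 4621 (edgeR adjusted p = 4.02e-05). LOC103653493 (ZF-HD protein 10, chromosome 4) had 0.0579, 0.124 and 0.0571 CPM in shrek1, against 2.10, 2.81 and 1.18 CPM in WT, and LOC100285642 (ZF-HD protein 8, chromosome 2) had 0.116, 0.0618 and 0.114 CPM in shrek1, against 1.33, 2.10 and 1.27 CPM in WT. Both stood above 1 CPM in every WT library and below 0.2 CPM in every shrek1 library, with log2 fold changes of -4.57 ± 0.60 (edgeR adjusted p = 7.69e-05) and -3.91 ± 0.54 (edgeR adjusted p = 0.000104). LOC100285332 (ZF-HD protein 11, chromosome 5) was too low to be tested, with no count in shrek1 and 0.609, 0.701 and 0.236 CPM in WT, at least 2.91-fold lower in shrek1. The last 2 ZF-HD genes with a homeodomain match, LOC103643913 and LOC103626326, had 0 and 5 counts over the shrek1 libraries and 4 and 1 over the WT libraries.

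Mini zinc finger genes were nearly absent from both genotypes. Of 12 members, 8 had no count and none was tested. The 4 with counts together summed to 0.811, 0.680 and 0.343 CPM in shrek1, against 1.44, 1.10 and 0.519 CPM in WT, which overlap. The largest, LOC100285819 on chromosome 7, held 10 counts over the shrek1 libraries and 44 over the WT libraries. LOC100286181 on chromosome 3, named after its values were seen, lay the other way, with 16 counts in shrek1 and 7 in WT. LOC118476993 and LOC100285348 had at most 8 counts in a genotype.

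**Figure D5:**
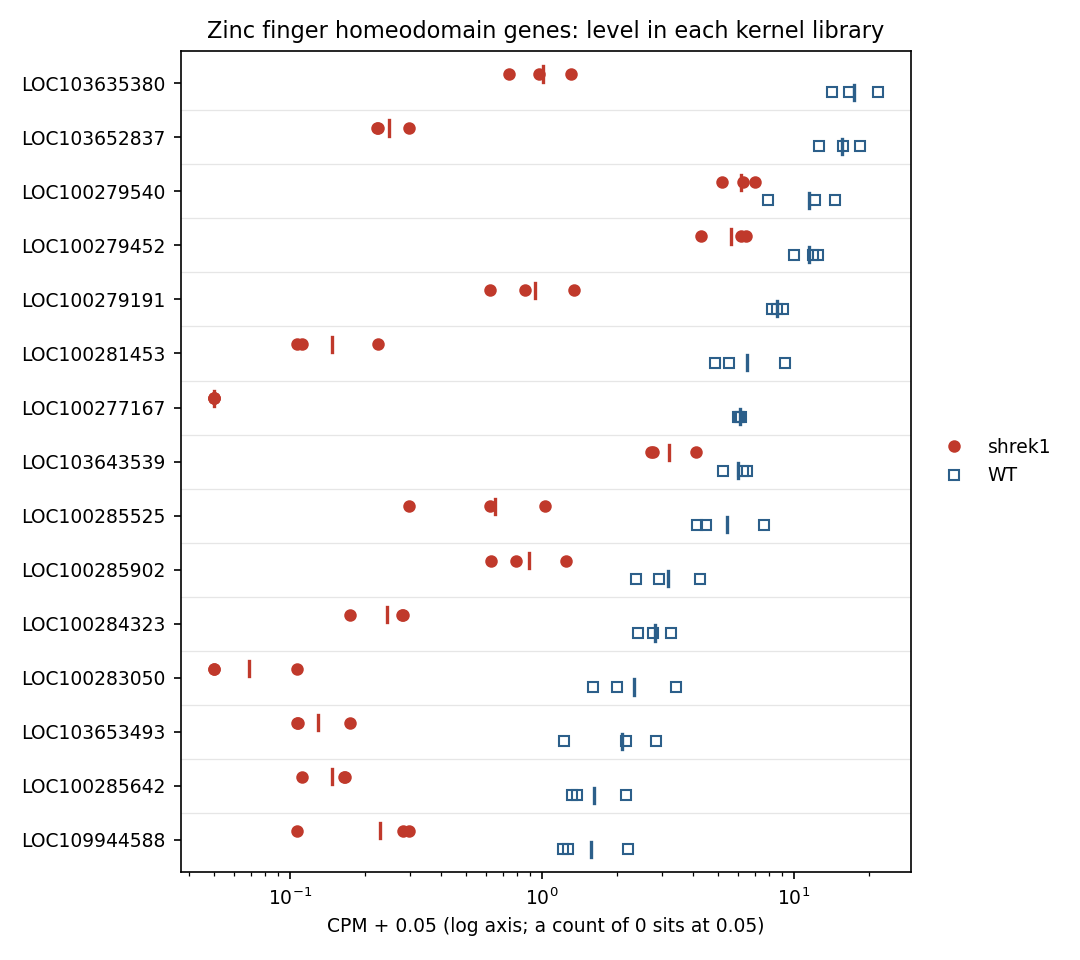
CPM of the 15 tested ZF-HD genes in each library, on a log axis after adding 0.05 (points are libraries, ticks are means, n = 3 per genotype). No gene overlaps between genotypes, and the gaps are narrowest for LOC100279540, LOC100279452 and LOC103643539.

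Ordered by length-scaled level, WT kernels had 28 of the 33 tested members at 1 FPKM or more, and shrek1 kernels 8. The 8 in shrek1 were 5 KNOX genes, 3 ZF-HD genes and no YABBY gene. The highest YABBY mean was 0.324 FPKM in shrek1 and 9.30 FPKM in WT, the highest ZF-HD mean was 3.50 FPKM in shrek1 and 11.5 FPKM in WT, and the highest KNOX mean was 10.1 FPKM in shrek1 and 21.0 FPKM in WT. In WT the order began with LOC103638717, LOC103635380, LOC100383874 (9.69 ± 0.614 FPKM), yabby 9 and yabby homolog10, of which neighbours from the second to the fifth differed by less than the sum of their SDs, and in shrek1 it began with LOC103638717, LOC100383874 (8.18 ± 0.601 FPKM) and LOC732756 (6.62 ± 0.953 FPKM; SD, n = 3 each).

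Partners and targets of these families were mixed in direction. BELL proteins are homeodomain partners of KNOX proteins, and of 13 BELL genes 7 were tested, of which 4 fell and 1 rose, or 2 rose without WT replicate 1. Among all tested genes 32.4% fell, 32% rose and 64.4% passed either way, so with 7 genes these counts show nothing particular to BELL genes, and 2 of the 4 that fell, BLH14 and BLH12, passed the low-count filter through WT alone and had to differ. BLH14 (LOC100272551) had 0.0579, 0.0618 and 0.114 CPM in shrek1, against 5.65, 4.91 and 7.07 CPM in WT, a log2 fold change of -6.11 ± 0.40 (edgeR adjusted p = 5.69e-07). LOC100281572 (-1.12 ± 0.26) and LOC100382470 (-1.59 ± 0.37) fell less. The BELL gene that rose, LOC100281788, had 2.43, 1.98 and 1.77 CPM in shrek1, against 0.941, 0.902 and 0.849 CPM in WT, a log2 fold change of 1.19 ± 0.33 (edgeR adjusted p = 0.00864).

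Of 33 genes for repressors of KNOX genes and for enzymes of gibberellin and cytokinin metabolism that KNOX proteins are known to regulate, 12 were tested, 7 fell and 4 rose, beside 32.4% lower and 32% higher among all tested genes. Of the 12, 2 had fewer than 10 counts in every shrek1 library (LOC100276935 and LOC100192514) and 2 in every WT library (LOC103636636 and LOC100217010). These 4 passed the low-count filter through the other genotype alone and had to differ. LOC107521947, LOC778427 and rough sheath 2 (LOC542488) missed the cutoff in some shrek1 library and also passed only through WT. LOC103627438 likewise passed only through shrek1. Their calls are to be read with the same limit. A gibberellin 20-oxidase gene (LOC100276935), for an enzyme of gibberellin synthesis, had 0.347, 0 and 0 CPM in shrek1, against 9.97, 11.8 and 16.6 CPM in WT, a log2 fold change of -6.69 ± 0.59 (edgeR adjusted p = 1.45e-05) in which all 6 shrek1 counts came from replicate 1. Other 20-oxidase genes are named after their values were seen. LOC107521947 (-4.45 ± 0.25, edgeR adjusted p = 2.58e-07) and LOC778427 (-2.55 ± 0.60, edgeR adjusted p = 0.00443) fell as well. Only LOC100217010 rose among the tested 20-oxidase genes, with 53 counts over the shrek1 libraries and 1 over the WT libraries (edgeR adjusted p = 0.000126). Genes for gibberellin 2-oxidases, which inactivate gibberellins, went both ways. LOC100280480 fell (-2.08 ± 0.33), while LOC103627438 rose, with 9.78, 7.36 and 6.17 CPM in shrek1, against 0.941, 0.250 and 0.472 CPM in WT (3.82 ± 0.38, edgeR adjusted p = 1.16e-05), and LOC103636636 rose as well (2.63 ± 0.54). LOC100192514 fell, with no count in shrek1 and 72 over the WT libraries (edgeR adjusted p = 0.00042). LOC100285694 did not pass (0.67 ± 0.35, edgeR adjusted p = 0.138). These last genes are named after their values were seen. The repressor gene rough sheath 2 (LOC542488) fell and is named after its values were seen. It had 1.33, 0.371 and 1.83 CPM in shrek1, against 6.42, 7.21 and 6.32 CPM in WT (-2.48 ± 0.39, edgeR adjusted p = 0.000303). The gene of the KH-domain protein that interacts with ROUGH SHEATH2 (LOC732737) fell by 0.73 on the log2 scale. An adenylate isopentenyltransferase gene (LOC103630695), for cytokinin synthesis, rose by 0.75. That last rise no longer passed without shrek1 replicate 1, without WT replicate 3 or with library size as the only scaling, at log2 fold changes of 0.52, 0.62 and 0.46.

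YABBY proteins act with corepressors of the LEUNIG, SEUSS and TOPLESS groups. Of 25 genes whose descriptions hold these names 20 were tested, 7 fell and 1 rose, with a median log2 fold change of -0.22. The share that fell is near the 32.4% of all tested genes. The number that fell was 17 with library size as the only scaling and 12 without WT replicate 3. Names alone made the list: LOC100194293 and LOC100304385, called leunig-related, match WD repeat-containing protein 26. LOC100304385 is among the 7 that fell (-0.46 ± 0.11, edgeR adjusted p = 0.005), and LOC100194293 did not pass. A TOPLESS-related gene (LOC100381576) had 113.4, 105.6 and 105.0 CPM in shrek1, against 147.2, 140.3 and 149.9 CPM in WT (-0.43 ± 0.08, edgeR adjusted p = 0.000861), while another (LOC103649954) rose (0.77 ± 0.09). A LEUNIG gene (LOC100383414, -0.37 ± 0.09) fell and no longer passed with an offset for gene length, at -0.09, and the SEUSS-like gene LOC100280226 fell (-0.74 ± 0.11). Larger falls were those of a LEUNIG gene, LOC103634873, with 28 counts over the shrek1 libraries and 793 over the WT libraries (-4.60 ± 0.31, edgeR adjusted p = 6.52e-07), and of a SEUSS gene, LOC103650622 (-1.42 ± 0.12), both named after their values were seen. LOC103634873 had 9, 4 and 15 counts in the shrek1 libraries and passed the low-count filter through WT alone. Its call is to be read with that limit.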

How the data were processed

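The deposited table holds raw counts per gene for 6 libraries, not normalized by the authors. The deposited FPKM table gives fragments per kilobase of gene and sequencing depth, and matched the counts after division by gene length and by 1 size for each library. Libraries were made with a strand-keeping kit, per the labels' protocols. The submitters' processing notes name HISAT2 2.0.5 and featureCounts 1.5.0-p3. Their roles, strand setting and the genome build are not given in the sources used here. Coordinates are those of the deposited table. Chromosome numbers come from the RefSeq table of Zm-B73-REFERENCE-NAM-5.0, which held all 73 members, 71 with the same start.

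The test was that of edgeR 4.0.16 under R 4.3.3 (filterByExpr by genotype, TMM, robust quasi-likelihood test, two-sided, Benjamini-Hochberg over 22681 genes, threshold 0.05). It was tested on simulated data, in which the share of false calls was above the nominal threshold. Far fewer genes were changed in the simulation than passed here, so the share of false calls in these data is not known. The adjusted p-values are to be read with this limit. SEs were derived from the fold change and F value. For genes at 0 in a genotype the fold is a bound against 3 counts per library, and for 1 to 3 counts the normalised totals are given as a ratio with an exact 95% interval. The alternatives were DESeq2 1.42.0 size factors and test, limma 3.58.1 on log2(FPKM + 1) and log2(FPKM + 0.1) and on genes averaging at least 1 FPKM, library size only, a length offset, no filter, a replicate block and each library left out.

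The members, the marker and companion lists and the rules were chosen with earlier results of these data known. Values per library are given for members averaging at least 1 CPM in a genotype, or at 0 in every library of 1 genotype with 10 or more counts in the other. In companion lists, up to 3 called genes per direction with the highest mean CPM are named by rule. Some further ones were named after their values were seen. All mini zinc finger genes were members, so that companion list was empty. Embryo, endosperm and maternal markers ole2, al9, betl9, mrp1, p2 and zmm1 were not matched to an identifier. Of 17 pseudogene and lncRNA entries matching the same words, 15 had no count, and the highest library held 3. They were left out. Promoter motifs were planned and not analysed here.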

Additional observations from a re-analysis of the deposited data

How the results depend on the processing

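Over the other settings tried, the 33 tested members gave 484 values, of which 477 kept their direction and side of the threshold, and 30 members did so throughout. LOC732756 turned to -0.0549 with library size as the only scaling, and LOC109943467 to 0.13 with log2(FPKM + 0.1), 0.0906 with the replicate block, and between -0.97 and 1.95 with a library left out. Among genes averaging at least 1 FPKM, 5 of 5 tested YABBY genes fell, BELL genes numbered 1 lower and 0 higher, and 2 KNOX repressors and targets rose. With library size only, 17 YABBY corepressor genes fell, and 2 rose without a filter and 3 with a length offset. With a library left out, 7 to 12 corepressor genes fell and 1 to 2 BELL genes rose. The replicate numbers did not pair the samples: same-numbered deviations correlated at 0.096, -0.049 and 0.028, and with the replicate block 14348 genes passed, with 8 YABBY, 7 KNOX and 15 ZF-HD genes lower. Family medians shrank on log2(FPKM + 1), where low genes are understated by construction, to -1.63 for YABBY, -0.86 for KNOX and -1.16 for ZF-HD. Keeping only members whose entry names the family's own domain, an alternative added after seeing the data, gave a KNOX median of -2.44. Genes with few or no shrek1 counts are limited by depth to bounds and wide ratios.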
